A study of Drosophila melanogaster with 30 samples.

Results

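The CR loci of Drosophila melanogaster are the gene models whose name is CR followed by digits, the prefix that annotators give to models with no coding sequence. All rows of the deposited count tables with such a name were taken, except those on chromosome 4, which left 271 loci among 14284 rows. A later RefSeq annotation matched 268 of them and classed 200 as lncRNA, 56 as antisense RNA, 4 as other ncRNA, 3 as pseudogenes and 1 as an snRNA. It classed 4 as coding (CR43610, CR43428, CR43473 and CR43497), so the group held long non-coding RNA genes far more than pseudogenes. Models were 93 to 36194 bases long, with a median of 978 bases, against 2067 bases for coding genes.

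The study profiled chromatin in cells isolated from the brains of wandering third-instar larvae by micrococcal nuclease ChIP-seq. The groups were neurons, neuroblasts with brat RNAi and numb RNAi (brat numb RNAi, called tumor neuroblasts in the labels), neuroblasts with brat RNAi (also called tumor neuroblasts), and type I neuroblasts with neither RNAi, which are neural stem cells that divide asymmetrically and carry the letters wt in the labels. Each group had 2 libraries for each of 2 marks, 16 libraries in all, and 14 input samples were not analysed here. The labels name no driver for the RNAi and no number of animals, and no group held normal type II neuroblasts, the lineage in which loss of brat is known to give tumours, so RNAi and lineage cannot be told apart. All comparisons with type I neuroblasts share the same 2 libraries per mark. In such pooled cells, fewer cells that carry a mark and less of the mark per cell cannot be told apart.

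H3K4me3 (trimethylated histone H3 lysine 4) lies at the starts of transcribed genes, whether or not the product is translated. H3K27me3 (trimethylated lysine 27) is placed by Polycomb repressive complex 2 and covers broad domains over developmental genes that a cell keeps off. Long non-coding RNAs can lie within such domains, and antisense RNAs overlap coding genes by definition, so reads over them cannot be assigned to one of the overlapping genes by position alone. Chromatin fragments carry no strand of transcription.

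Libraries held 2461222 to 12258131 counted reads for H3K4me3, in the window from each start to 500 bases downstream, and 15281722 to 25009648 for H3K27me3, over whole gene models. Levels are counts scaled to library size (CPM, the usual per-library unit) with factors from TMM, a normalization that takes most genes to be unchanged. The summed H3K4me3 CPM of 5 neuroblast markers (dpn, wor, ase, mira and CycE) was 141 to 145 in neurons, 420 to 850 in brat numb RNAi, 411 to 649 in brat RNAi and 802 to 954 in type I neuroblasts. Of 5 neuron markers 4 were found (elav, Syt1, brp and futsch, but no row named nSyb), with sums of 345 to 558 in neurons, 134 to 190 in brat numb RNAi, 141 to 160 in brat RNAi and 188 to 392 in type I neuroblasts, where replicate 1 had the 392. Glial markers (repo and moody) summed to 10.6 to 31.8 CPM and hemocyte markers (Hml and Pxn) to 6.45 to 22.5 CPM in all 8 libraries, and none of these markers was at 0. The sum over btd, Sp1 and pnt, genes of the type II lineage, was 32.9 to 64.3 CPM in neurons, 45.6 to 49.9 in brat numb RNAi, 131 to 169 in brat RNAi and 36.9 to 38.9 in type I neuroblasts.

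By coordinates of the dm3 build, 113 of the 271 loci shared at least 1 base with a coding gene model and 158 shared none. Coding models covered 98 loci over at least 50% of their length, 75 lay wholly inside a coding model and 8 contained one. The overlap was with a gene on the opposite strand at 99 loci, with one on the same strand at 15, and with both at 1. By class, 55 of 56 antisense RNAs and 53 of 200 lncRNAs overlapped a coding gene. The H3K4me3 window of 103 loci touched a coding model, and that of 20 shared bases with the window of another gene, so those counts are shared. At 37 loci the model was shorter than the window, which then ran past its end.

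The low-count filter kept 267 CR loci for H3K4me3 and 265 for H3K27me3. The 4 loci on unplaced scaffold U had no read in any of the 16 libraries, and CR43701 and CR40469, which are 93 and 214 bases long, failed for H3K27me3 only. Most CR windows carried little H3K4me3. The median CR locus stood at the 25.1st to 30.5th percentile of all genes tested, depending on the library, and 46 of 267 (17.2%) had a mean above that of the median gene, 16.001 CPM. Those 46 were longer than the other 221, with a median of 1359.5 bases against 897 bases, and 13 of the 46 were antisense RNAs, against 43 of the 221.

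Distance to a coding start went with the level, as a description of these loci. The median was 12.5 CPM at 42 loci within 500 bases of a coding start and 9.97 CPM at 24 loci over 500 and up to 1000 bases away. It was 8.99 CPM at 68 loci farther off with the window inside a coding gene, and 8.32 CPM at the 133 tested loci farther off and outside coding genes. A level above the median gene was found at 14, 7, 9 and 16 loci of these classes. So 21 of the 46 loci with H3K4me3 had a coding start within 1000 bases, and 16 had their window outside coding genes and more than 1000 bases from any coding start.

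**Figure D1:**
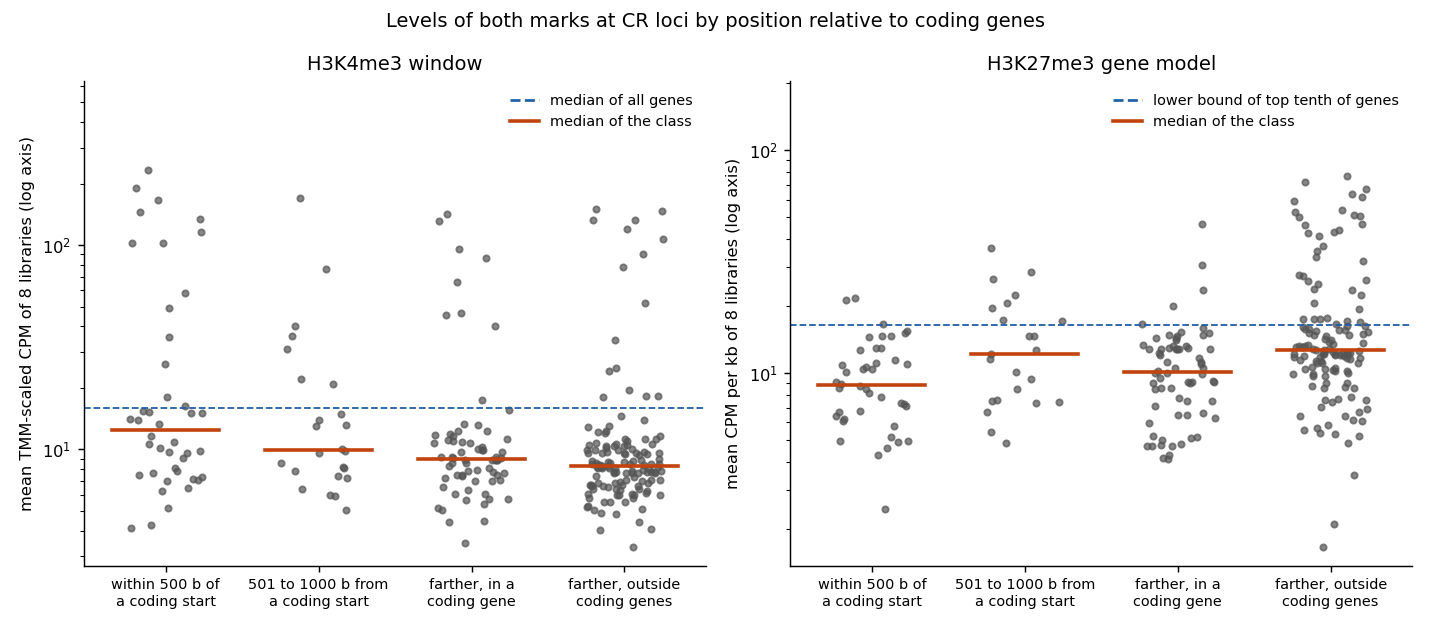
Mean level over 8 libraries of each CR locus (points; log axes) for H3K4me3 in the start window (left, TMM-scaled CPM) and H3K27me3 over the model (right, CPM per kilobase), by position relative to coding genes. Red lines are class medians (12.5 CPM for H3K4me3 within 500 bases, 8.32 CPM farther off and outside coding genes) and dashed lines the median gene for H3K4me3 (16.001 CPM) and the lower bound of the top 10% of genes for H3K27me3 (16.4 CPM per kilobase), above which 38 loci of the class outside coding genes lie.

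The highest mean H3K4me3 levels were at CR loci that share a start region with a coding gene: CR42862, CR42549, CR43767 and CR43466. Next came CR32207 (mean of 150 CPM over the 8 libraries), with its window outside coding genes and 2830 bases from the nearest coding start. CR43241 followed (147 CPM), also with its window outside coding genes, 1079 bases from the nearest coding start. CR42862 (chr3L:224106-230964) starts at the same place as CG33229 and had 401 and 169 CPM in neurons, 102 and 237 in brat numb RNAi, 230 and 124 in brat RNAi and 375 and 230 in type I neuroblasts (values are given in the order of replicates 1 and 2 throughout). CR42549 (chr3R:5373826-5377528) starts at the same place as mura, a ubiquitin ligase gene, and ranged from 100 to 415 CPM over the 8 libraries. The antisense RNA CR43767, whose model overlaps the golgi and transport gene Tango14, ranged from 71.1 to 282 CPM with the Tango14 start 694 bases away, and the antisense RNA CR43466 from 110 to 286 CPM with the start of NKAIN 265 bases away. Neuron and type I libraries overlapped at CR42862, CR42549 and CR43466, and at CR43767 both neuron libraries (154 and 71.1 CPM) were below both type I libraries (223 and 155 CPM). The windows of CR42862 and CR42549 are those of CG33229 and mura, so their counts are the same reads. Those of CR43767 and CR43466 share bases with the windows of Tango14 and NKAIN, so part of their reads may be the same.

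At the 221 CR loci at or below the median gene, levels differed between libraries of the same group. Their median was 5.88 and 11.5 CPM in neurons, 13.5 and 5.75 in brat numb RNAi, 5.78 and 10.6 in brat RNAi and 4.005 and 5.95 in type I neuroblasts. The 3 highest values came from the 3 libraries with the fewest reads. The median log2 fold change of these loci was 0.75 in neurons, 0.93 in brat numb RNAi and 0.69 in brat RNAi against type I neuroblasts, and that of all genes of the same range of levels was 0.68, 0.85 and 0.67. Read number thus moved with the level of weakly marked loci, CR or not, and its part in single values was not tested.

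Comparing neurons with type I neuroblasts sets differentiated cells against stem cells. At CR loci, H3K4me3 fell in neurons at 5 of 267 CR loci and rose at none by edgeR's quasi-likelihood test (adjusted p under 0.05 over all genes). Over all 14185 genes tested 0.444% were called lower and 0.00705% higher. The loci were the lncRNA genes CR43650, CR31386 and CR43334, the antisense RNA CR43609 and the hairpin RNA gene CR32207, and 4 of the 5 had no coding overlap. Before adjustment, 15 CR loci (5.62%) were lower and 4 of 267 higher with p under 0.05, near the 5.19% and 2.04% of all genes.

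CR43650 (chr2R:12716605-12723038, plus strand) lies 1295 bases from CG34460 and its role is not known. Its H3K4me3 was 5.74 and 11.6 CPM in neurons, 82.7 and 165 in brat numb RNAi, 118 and 61.7 in brat RNAi and 148 and 131 in type I neuroblasts. Both neuron libraries lay far below the 6 neuroblast libraries, which overlapped among groups. The log2 fold change of neurons over type I neuroblasts was -4.01 (SE 0.75, adjusted p = 0.00065, edgeR). At CG34460 itself, H3K4me3 was 7.79 and 11.9 CPM in neurons and 5.66 and 11.1 CPM in type I neuroblasts.

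CR43334 (chr3L:628435-643900, plus strand) is a lncRNA gene of 15466 bases that overlaps no coding gene. H3K4me3 was 9.43 and 25.4 CPM in neurons, 118 and 163 in brat numb RNAi, 170 and 87.7 in brat RNAi and 151 and 129 in type I neuroblasts, so the neuron libraries again stood below all others. Neurons differed by a log2 fold change of -3.01 (SE 0.72, adjusted p = 0.021, edgeR).

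CR43609 (chr2L:21952-24237, plus strand) lies inside the ionotropic receptor gene Ir21a on the other strand, 580 bases from the start of l(2)gl, a cell polarity gene and tumour suppressor of neuroblasts. Its window had 12.3 and 19.7 CPM in neurons, 45.9 and 92.8 in brat numb RNAi, 98.2 and 55.9 in brat RNAi and 104 and 179 in type I neuroblasts. The neuron libraries were lowest, and those of brat RNAi and brat numb RNAi were all below the type I libraries. The log2 fold change of neurons over type I neuroblasts was -3.14 (SE 0.72, adjusted p = 0.015, edgeR). At l(2)gl it was -1.26 (edgeR adjusted p = 0.73), with 96.5 and 56.6 CPM in neurons and 251 and 115 CPM in type I neuroblasts. The window of Ir21a itself had 6.56 and 17.4 CPM in neurons and 4.42 and 10.7 CPM in type I neuroblasts.

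The hairpin RNA genes give long inverted-repeat transcripts, a source of endogenous siRNAs in flies. CR32207 (chr3L:19470429-19471769, minus strand) had 42.6 and 29.6 CPM in neurons, 73.7 and 217 in brat numb RNAi, 245 and 110 in brat RNAi and 250 and 233 in type I neuroblasts. Its log2 fold change in neurons was -2.74 (SE 0.71, adjusted p = 0.034, edgeR). CR32205, a hairpin RNA gene on the same arm that was chosen after its values were seen, had 24.7 and 15.8 CPM in neurons, 37.7 and 114 in brat numb RNAi, 148 and 46.3 in brat RNAi and 137 and 102 in type I neuroblasts. It had a like log2 fold change, -2.56 (SE 0.71), and missed the threshold (edgeR adjusted p = 0.053). Neuron libraries were lowest at both. Reads of inverted repeats may map to more than 1 place, and how such reads were counted is not stated. The third hairpin RNA gene, CR18854, also outside the naming rule, lies 78 bases from the start of CG4036 and was at 0.22 (edgeR adjusted p = 0.90).

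File labels hold codes such as SBa27, which no source used here explains. Neurons and type I neuroblasts share codes 27 and 51 for H3K4me3, so the ratio can be taken within each. At CR43650 the log2 ratio was -4.69 in code 27 and -3.50 in code 51, at CR31386 -4.72 and -3.50, at CR43609 -3.09 and -3.18, at CR43334 -4.01 and -2.34, and at CR32207 -2.55 and -2.98. All 5 were lower in neurons in both codes. The loci were called from these same libraries, so the ratios are not a separate check of the calls. In these groups replicate number and code coincide, and with the replicate number as a block CR43334 and CR32207 lost their call (edgeR adjusted p = 0.062 and 0.098). The number of calls rested on single libraries. It fell without type I replicate 2, neuron replicate 1 or brat replicate 1, and rose without brat replicate 2 or either brat numb RNAi library. These changes describe that dependence alone, and not an excess of CR loci over all genes. With all libraries, DESeq2 called 12 CR loci lower and none higher, where it called 2.38% of all genes lower and 0.113% higher.

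**Figure D2:**
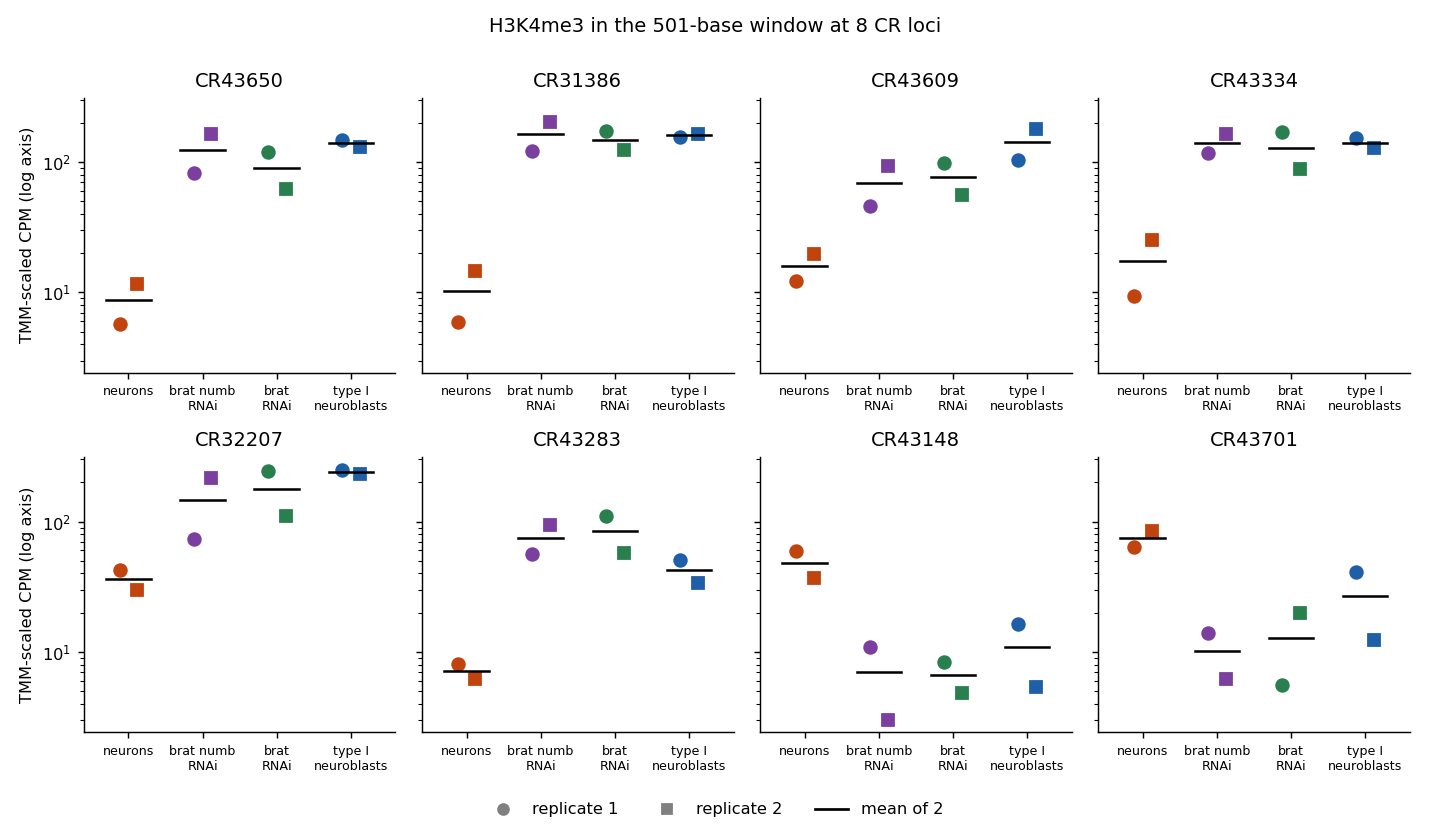
H3K4me3 in each library (TMM-scaled CPM, log axis) at 8 CR loci in neurons, brat numb RNAi, brat RNAi and type I neuroblasts; circles are replicate 1, squares replicate 2 and bars the mean of 2. The neuron libraries lie below the 6 others at CR43650, CR31386, CR43609, CR43334, CR32207 and CR43283 (for example 8.07 and 6.24 CPM at CR43283, where the lowest neuroblast library had 34.002), and above them at CR43148 and CR43701.

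Among the 46 CR loci with H3K4me3 above the median gene, 33 had a negative and 13 a positive log2 fold change in neurons, with a median of -0.79, against -0.38 over all genes in that range of levels. In 26 of these 46, both neuron libraries were below both type I libraries. The share over all genes in that range of levels was not counted, so this describes these loci alone. Over all 267 loci such non-overlap in the lower direction held at 30, or 11.2%, against 19.5% of all genes, and in the higher direction at 97, or 36.3%, against 23.6%. The marked loci named here as lower without passing edgeR include the lncRNA CR31044, with 40.7 and 44.1 CPM in neurons and 170 and 168.5 CPM in type I neuroblasts (log2 fold change -1.997, SE 0.69, edgeR adjusted p = 0.22; chosen after its values were seen).

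Loci at which any of the 4 groups differed were sought with a joint test of 3 coefficients. It called 7 CR loci of 267, where 2.05% of all genes were called (edgeR), and 12 by DESeq2, which called 3.76% of all genes. They were CR31386, CR43650, CR43334 and CR43609, named above, and CR43283, CR43148 and CR43701. CR32207 did not pass this test (edgeR adjusted p = 0.064).

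CR43148 and CR43701 were the marked exceptions, with most H3K4me3 in neurons. CR43148 (chr2L:21624679-21626190) is a lncRNA gene 400 bases from Df31, which encodes a chromatin decondensation factor, and its start is 1056 bases from that of CG2201. It had 59.3 and 37.0 CPM in neurons, 10.99 and 3.03 in brat numb RNAi, 8.41 and 4.82 in brat RNAi and 16.3 and 5.42 in type I neuroblasts. The neuron libraries lay above the 6 others (edgeR adjusted p = 0.0047 in the joint test), but the comparison with type I neuroblasts alone did not pass (log2 fold change 2.15, SE 0.77, edgeR adjusted p = 0.24). The start of Df31 had 532 and 140 CPM in neurons and 396 and 148 CPM in type I neuroblasts, and that of CG2201 had 5.33 and 18.4 CPM in neurons and 6.49 and 7.10 CPM in type I neuroblasts.

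CR43701 (chr3L:1488739-1488831), a small RNA gene of 93 bases inside stet, had 63.8 and 85.1 CPM in neurons, 14.1 and 6.25 in brat numb RNAi, 5.57 and 19.9 in brat RNAi and 41.2 and 12.3 in type I neuroblasts. The neuron libraries were again highest (edgeR adjusted p = 0.0060 in the joint test). Again the comparison with type I neuroblasts alone did not pass (log2 fold change 1.48, edgeR adjusted p = 0.63). Its window lies in stet, a rhomboid protease gene whose start is 808 bases away and which had 118 and 124 CPM in neurons and 69.2 and 18.1 CPM in type I neuroblasts. At both loci type I replicate 1 stood above replicate 2, as it did for the summed neuron markers, and the part of this in the results was not tested.

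CR43283 and CR31386 lie next to each other on 3R, in a stretch with no coding gene between CG5214 and pros. RefSeq names CR43283 cherub, a long non-coding RNA described in Drosophila as needed for the growth of brat tumours and as segregated unequally when their neuroblasts divide. The gene pros encodes a homeodomain factor that turns off neuroblast genes in the differentiating daughter cell. Both CR loci are on the minus strand, cherub at chr3R:7073825-7081845 and CR31386 at chr3R:7095137-7131330, and 13.3 kb separate the start of cherub from the end of CR31386.

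H3K4me3 at the start of cherub was 8.07 and 6.24 CPM in neurons, 56.8 and 93.3 in brat numb RNAi, 111 and 57.2 in brat RNAi and 50.4 and 34.002 in type I neuroblasts. All 4 RNAi libraries were above both type I libraries, and the neuron libraries were lowest. The groups differed in the joint test (edgeR adjusted p = 0.0018). Taken alone, neurons against type I neuroblasts gave a log2 fold change of -2.56 (SE 0.72) that missed the threshold (edgeR adjusted p = 0.062) and passed by DESeq2 (adjusted p = 0.0016). Within SBa codes 27 and 51 the log2 ratios were -2.64 and -2.45. It was 1.00 on the log2 scale (SE 0.68, edgeR adjusted p = 0.80) in brat RNAi and 0.83 (SE 0.67, edgeR adjusted p = 0.64) in brat numb RNAi against type I neuroblasts, so neither difference passed. The log2 ratio of brat RNAi over type I neuroblasts was 1.14 in code 27. The mark at CR31386 was 5.88 and 14.5 CPM in neurons, 121 and 204 in brat numb RNAi, 172 and 123 in brat RNAi and 155 and 165 in type I neuroblasts. There the 6 neuroblast libraries overlapped, and neurons were lower by a log2 fold change of -3.97 (SE 0.75, adjusted p = 0.00065, edgeR).

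H3K27me3 over the same models ran the other way. CR31386 had 4401 and 821 CPM in neurons, 238 and 226 in brat numb RNAi, 219 and 164 in brat RNAi and 218 and 197 in type I neuroblasts. Cherub had 798 and 156 CPM in neurons, 31.8 and 26.8 in brat numb RNAi, 25.7 and 27.1 in brat RNAi and 42.2 and 23.3 in type I neuroblasts. At both loci each neuron library was above all 6 neuroblast libraries, and neuron replicate 1 stood far above replicate 2.

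The log2 fold change of neurons over type I neuroblasts was 3.65 (SE 0.70) at CR31386 and 3.86 (SE 0.74) at cherub, and neither passed edgeR (adjusted p = 0.53 for each). DESeq2 called both (adjusted p = 1.29e-06 and 8.38e-07), and so did edgeR without neuron replicate 2 (adjusted p = 9.3e-05 and 0.0012). Without neuron replicate 1 the log2 fold changes were 2.03 and 2.30 (edgeR adjusted p = 0.067 and 0.34). Within SBa code 26, the one code that both groups share for this mark, the log2 ratio was 4.33 at CR31386 and 4.24 at cherub. Of 265 CR loci with both marks tested, 8 had H3K4me3 at least 4-fold lower in neurons and 2 had H3K27me3 at least 4-fold higher, and these 2, CR31386 and cherub, were among the 8. None had the opposite pair of changes of that size. The shares over all genes were not counted, so these numbers describe CR loci alone.

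The flanking genes differed among themselves. At CG5214, 1239 bases from the end of cherub, H3K4me3 was 166 and 117 CPM in neurons and 195 and 168 CPM in type I neuroblasts (log2 fold change -0.36, edgeR adjusted p = 0.85), and H3K27me3 had a log2 fold change of 1.58 (edgeR adjusted p = 0.53). At the start of the pros model, H3K4me3 was 13.0 and 2.18 CPM in neurons and 22.9 and 0.444 CPM in type I neuroblasts (log2 fold change -0.61, edgeR adjusted p = 0.80). Over pros H3K27me3 was 1613 and 802 CPM in neurons and 687 and 614 CPM in type I neuroblasts (log2 fold change 0.89, edgeR adjusted p = 0.53). The kinase genes KP78a and KP78b, which share 1 set of coordinates inside pros, had H3K4me3 of 8.75 and 25.6 CPM in neurons and 118 and 161 CPM in type I neuroblasts (log2 fold change -3.03, SE 0.72, adjusted p = 0.019, edgeR). Their H3K27me3 log2 fold change was 1.495, so they too had lower H3K4me3 and a positive H3K27me3 fold change.

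**Figure D3:**
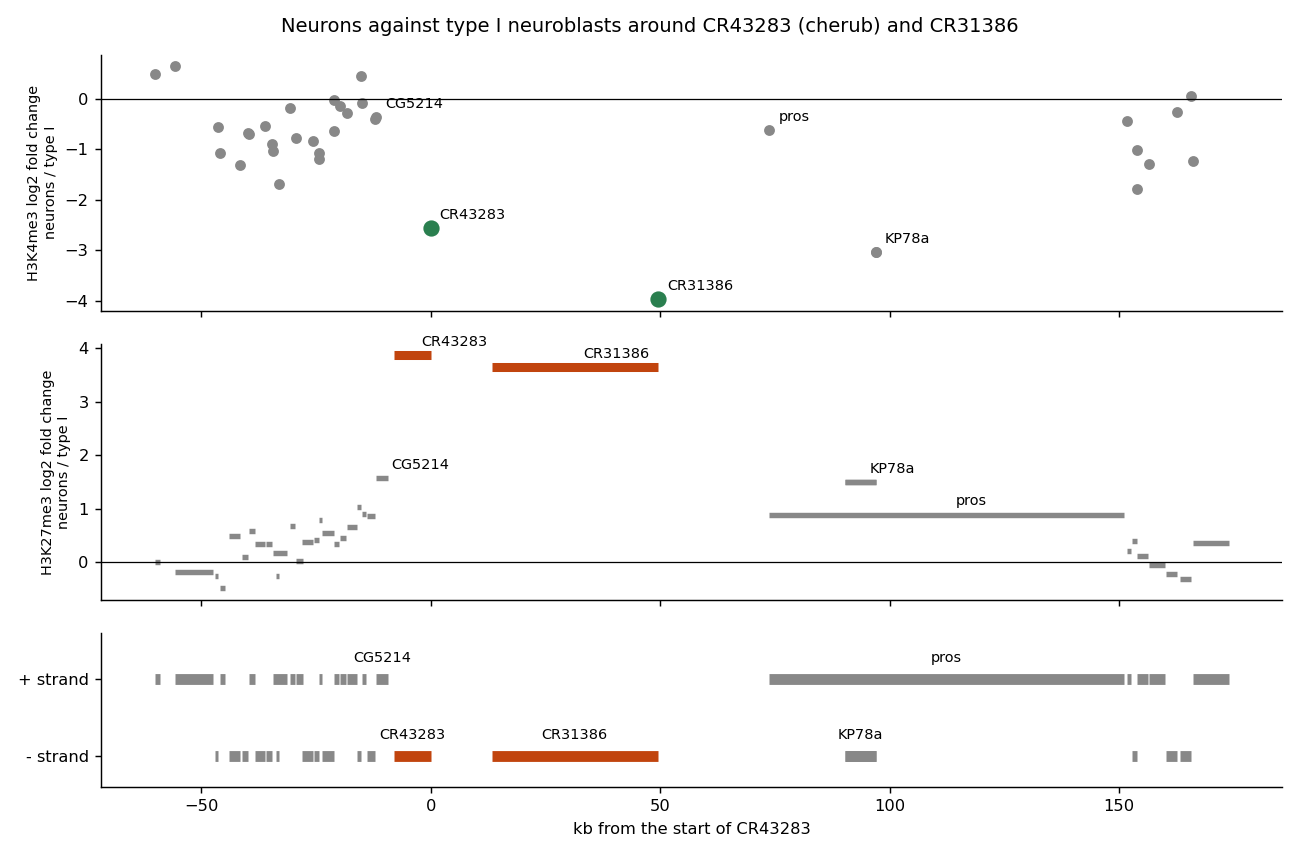
Log2 fold change of neurons over type I neuroblasts around cherub (CR43283) and CR31386, for H3K4me3 at each gene's start window (top) and H3K27me3 over each gene model (middle, bars span the model), with the gene models by strand below; the x axis is the distance from the start of CR43283 in kb. CR31386 (-3.97 for H3K4me3 and 3.65 for H3K27me3) and CR43283 (-2.56 and 3.86) have negative H3K4me3 and positive H3K27me3 fold changes; the CR locus at the left, CR31144, is at -1.70 and -0.25.

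**Figure D4:**
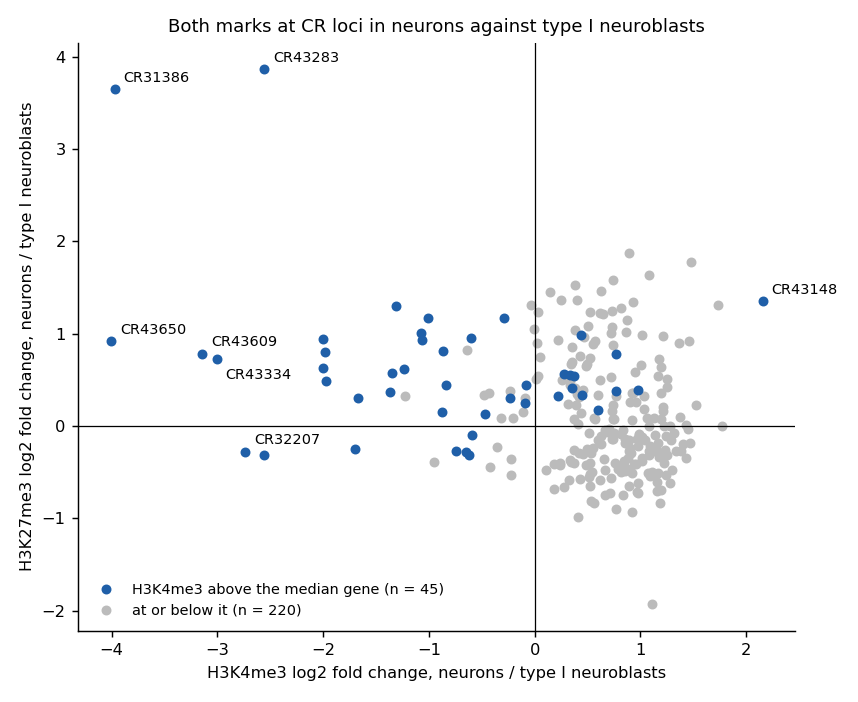
Log2 fold change of neurons over type I neuroblasts for H3K4me3 (x) and H3K27me3 (y) at the 265 CR loci tested for both marks; blue points have H3K4me3 above the median gene (45 loci) and grey points do not (220 loci). CR31386 and CR43283 stand apart at the upper left, and the grey points lie mostly right of 0 on the H3K4me3 axis, where 205 of the 221 loci with little H3K4me3 were higher in neurons.

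The next comparison set brat RNAi neuroblasts against type I neuroblasts. For H3K4me3, edgeR called no CR locus, where it called 0.0423% of all genes higher and 0.0564% lower, and DESeq2 called none either (0.296% of all genes higher, 0.409% lower). Before adjustment, 13 CR loci (4.87%) were higher and 1 (0.375%) lower with p under 0.05, against 3.39% and 2.13% of all genes. The 3 with the smallest p were lncRNA or antisense loci of low level. CR43152, antisense to CG15721, had 5.27 and 11.2 CPM in brat RNAi and 2.49 and 1.33 CPM in type I neuroblasts (log2 fold change 2.09, SE 0.80, edgeR adjusted p = 0.62). CR43279 had 6.28 and 10.6 CPM in brat RNAi and 3.04 and 1.15 CPM in type I neuroblasts (2.01, SE 0.79, edgeR adjusted p = 0.66). CR42836 had 5.47 and 31.2 CPM in brat RNAi and 2.62 and 5.42 CPM in type I neuroblasts (2.15, SE 0.89, edgeR adjusted p = 0.73). All 3 belong to the 221 weakly marked loci, whose median log2 fold change was 0.69 in this comparison. Both brat RNAi libraries were above both type I libraries at 82 CR loci (30.7%, against 21.8% of all genes) and below at 17 (6.37%, against 21.6%).

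H3K27me3 gave no call by edgeR between brat RNAi and type I neuroblasts, at CR loci or any of 14182 genes (0%), and 11 CR loci (4.15%) were higher and 7 (2.64%) lower with p under 0.05 before adjustment, against 3.12% and 2.82% of all genes. DESeq2 called 1 CR locus higher and 2 lower, where it called 0.0776% of all genes higher and 0.176% lower. The locus with the largest fold change was CR43498 (chrX:9621955-9622521), a lncRNA gene 1160 bases from Sp1. Sp1 and btd encode related zinc finger factors of the type II lineage.

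CR43498 had H3K27me3 of 40.3 and 7.94 CPM in neurons, 11.3 and 16.1 in brat numb RNAi, 1.34 and 1.19 in brat RNAi and 27.8 and 17.4 in type I neuroblasts. The brat RNAi libraries, with 19 and 22 reads, lay below the 6 others. The log2 fold change of brat RNAi over type I neuroblasts was -4.15 (SE 0.75, unadjusted p = 0.00037 and adjusted p = 0.50 by edgeR; DESeq2 adjusted p = 8.64e-07), and in SBa code 26 the log2 ratio was -4.38. It passed edgeR when only these groups were fitted (adjusted p = 1.1e-06) and without either neuron replicate (0.018 without replicate 1, 0.0060 without replicate 2). Sp1 itself had 62.2 and 92.8 CPM in brat RNAi and 1138 and 687 CPM in type I neuroblasts, and btd had 8.31 and 7.71 CPM in brat RNAi and 155 and 83.5 CPM in type I neuroblasts (log2 fold changes -3.56 and -3.90, edgeR adjusted p = 0.62 for each).

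H3K4me3 at CR43498 was low in all libraries, with 5.68 and 6.75 CPM in brat RNAi and 2.9 and 10.2 CPM in type I neuroblasts. At the start of Sp1 it was 90.8 and 67.8 CPM in brat RNAi and 15.2 and 13.5 CPM in type I neuroblasts (log2 fold change 2.47, edgeR adjusted p = 0.16), and at btd 69.8 and 54.6 CPM in brat RNAi and 17.0 and 17.8 CPM in type I neuroblasts (1.84, edgeR adjusted p = 0.66).

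CR43705 and CR43706 are lncRNA loci of 660 and 587 bases, 1563 and 739 bases from CG3698 and near the homeobox gene Six4. CR43705 had H3K27me3 of 131 and 24.5 CPM in neurons, 37.8 and 50.2 in brat numb RNAi, 12.2 and 10.9 in brat RNAi and 88.7 and 49.2 in type I neuroblasts. The brat RNAi libraries were lowest (log2 fold change against type I neuroblasts -2.57, SE 0.69, edgeR adjusted p = 0.68, DESeq2 adjusted p = 0.018), and in SBa code 26 the log2 ratio was -2.86. CR43706 had 10.3 and 7.92 CPM in brat RNAi and 69.7 and 31.3 CPM in type I neuroblasts (-2.47, SE 0.75, edgeR adjusted p = 0.68). At Six4 the values were 48.5 and 31.5 CPM in brat RNAi and 238 and 113 CPM in type I neuroblasts, with a log2 fold change of -2.13 (edgeR adjusted p = 0.75).

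CR41510 had a fold change in the opposite direction. It lies on the heterochromatin scaffold 2RHet (55480 to 78190), has no RefSeq match and overlaps CG40498, whose start window it shares. H3K27me3 was 185 and 219 CPM in neurons, 146 and 142 in brat numb RNAi, 519 and 462 in brat RNAi and 230 and 172 in type I neuroblasts, so both brat RNAi libraries stood above the 6 others. The log2 fold change of brat RNAi over type I neuroblasts was 1.28 (SE 0.21, unadjusted p = 0.00015 and adjusted p = 0.45 by edgeR; DESeq2 adjusted p = 0.0056). H3K4me3 at the shared window was 79.1, 6.89 and 30.1 CPM in the libraries of SBa code 27 (neurons, brat RNAi and type I neuroblasts). It was 0.101 to 3.53 CPM in the other 5. Code 27 coincides with replicate 1 in those groups, so code and replicate cannot be told apart, and the cause of this difference was not tested. Copies of repeats in heterochromatin may share reads, and the handling of such reads is not stated.

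**Figure D5:**
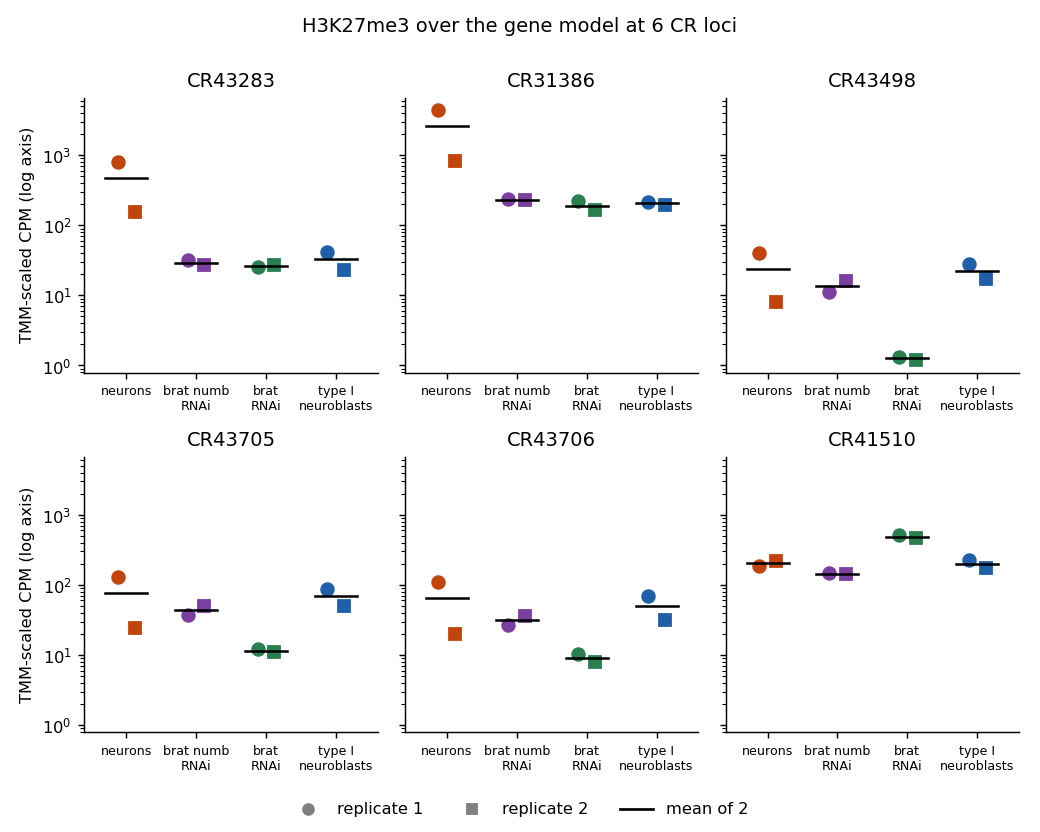
H3K27me3 in each library (TMM-scaled CPM over the gene model, log axis) at 6 CR loci in neurons, brat numb RNAi, brat RNAi and type I neuroblasts; circles are replicate 1, squares replicate 2 and bars the mean of 2. Brat RNAi is lowest at CR43498 (1.34 and 1.19 CPM), CR43705 and CR43706 and highest at CR41510 (519 and 462 CPM), and neurons are highest at CR43283 and CR31386, with replicate 1 above replicate 2.

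Brat numb RNAi was set against brat RNAi, which by the labels lacks numb RNAi, and against type I neuroblasts. Brat numb RNAi and brat RNAi share only SBa code 68. Their H3K4me3 sums over btd, Sp1 and pnt also differed, at 45.6 to 49.9 and 131 to 169 CPM. Numb RNAi, cell composition and code thus cannot be told apart. For H3K4me3 edgeR called no CR locus and no other gene in either comparison (0% in both), and few had p under 0.05 before adjustment. Against brat RNAi these were 4 of 267 CR loci higher and 1 lower (0.375%), beside 0.916% and 0.599% of all genes. Against type I neuroblasts they were 7 higher (2.62%) and 1 lower (0.375%), beside 1.68% and 1.59% of all genes. DESeq2 called no CR locus, where it called 0.0423% of all genes higher and 0.0352% lower against brat RNAi, and 0.0423% higher and 0.00705% lower against type I neuroblasts. Both brat numb RNAi libraries were above both type I libraries at 88 CR loci (33.0%, against 21.1% of all genes) and below both at 7 (2.62%, against 16.7%). They were above both brat RNAi libraries at 37 (13.9%, against 10.2%) and below at 7 (2.62%, against 5.1%). Brat numb RNAi and type I neuroblasts share no SBa code, so the code and the group cannot be told apart there. The smallest p values against brat RNAi were at CR34335 (log2 fold change 2.49, SE 0.84), CR43279 (-2.27, SE 0.81) and CR43643 (2.04, SE 0.82), all with edgeR adjusted p = 1.00. CR34335 rests on few reads, 60 and 16 in brat numb RNAi and 15 and 1 in brat RNAi. Against type I neuroblasts they were at CR34335 (1.89, SE 0.79), CR40469 (1.83, SE 0.78) and CR41510 (-5.67, SE 2.11), with edgeR adjusted p = 0.64 for each. The value of CR34335 against type I neuroblasts came from brat numb replicate 1 and was -0.02 without it.

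For H3K27me3 edgeR again called no gene in either comparison (0% in both). With p under 0.05 before adjustment, 5 CR loci were higher (1.89%) and 44 lower (16.6%) in brat numb RNAi against brat RNAi, beside 8.61% and 10.1% of all genes. Against type I neuroblasts none was higher and 4 were lower (1.51%), beside 1.10% and 1.86% of all genes. DESeq2 called 1 CR locus higher and 2 lower against brat RNAi, where it called 0.247% of all genes higher and 0.268% lower, and none against type I neuroblasts. CR41510 was lower than in brat RNAi (log2 fold change -1.77, SE 0.21, edgeR adjusted p = 0.10, DESeq2 adjusted p = 8.08e-06), and the log2 ratio within SBa code 68 was -1.70. CR43498 was higher, at 3.44 (SE 0.73, edgeR adjusted p = 0.20, DESeq2 adjusted p = 2.17e-04) and 3.75 within code 68. CR43634, a lncRNA of 339 bases, had 2.248 and 2.69 CPM in brat numb RNAi and 5.35 and 8.79 CPM in brat RNAi (-1.52, SE 0.39, edgeR adjusted p = 0.20, DESeq2 adjusted p = 0.044). Against type I neuroblasts the smallest p values were at CR43256, a lncRNA that overlaps gus over 51.7% of its length (-1.28, SE 0.51), CR43152 (-0.96, SE 0.39) and CR41510 (-0.48, SE 0.21), each with edgeR adjusted p = 0.86.

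Per kilobase, CR loci stood high for H3K27me3. The median CR locus was at the 61.4th to 72.5th percentile of all genes tested, depending on the library, and the median of the loci that overlap no coding gene at the 67.6th to 77.6th. In the top 10% of genes, above 16.4 CPM per kilobase, were 54 of 265 CR loci (20.4%), of which 44 had no coding overlap. By position, 38 of the 54 lay more than 1000 bases from a coding start with the window outside coding genes, where 132 loci were tested. Of the 54, 6 also had H3K4me3 above the median gene, by means over all 8 libraries. They include CR31386 and cherub, where neurons had the most H3K27me3 and the least H3K4me3. The 6 thus need not carry both marks in the same cells, and the share over all genes was not counted.

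The highest levels per kilobase were at CR43705 (mean of 76.7 CPM per kilobase over 8 libraries), CR43617 (71.9), CR43706 (66.7), CR43453 (63.7) and CR43302 (61.7), all lncRNA loci outside coding genes. CR43617 (chr3R:12718132-12723583) is nearest to Abd-B, the Hox gene of the posterior abdomen, 29349 bases away. It had 877 and 167 CPM in neurons, 272 and 347 in brat numb RNAi, 370 and 213 in brat RNAi and 596 and 294 in type I neuroblasts. These groups overlap, and the neuron libraries lie at both ends of the range. Abd-B itself had 6260 and 1156 CPM in neurons and 4504 and 2177 CPM in type I neuroblasts.

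Of the 271 CR loci, 14 lay within 20 kb of one of 80 listed developmental regulator genes, and 11 of the 14 were in the top 10% for H3K27me3, while 1 had H3K4me3 above the median gene. By mean level the first 5 were CR43453, 19381 bases from the homeobox gene lbe, CR43435 and CR42721, 12884 and 12108 bases from the Hox gene Dfd, CR43160, antisense within the homeobox gene otp, and CR43621, 2928 bases from the glial determinant gcm. In these 5 the neuron replicates held both the highest and the lowest of the 8 values: for CR42721 they were 1738 and 342 CPM, and the 6 neuroblast libraries ranged from 343 to 762 CPM. At CR43621 the neuron libraries had 141 and 31.8 CPM, and the neuroblast libraries 39.6 to 71.3 CPM.

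This spread was seen at most CR loci of the top 10%, which were chosen by their mean over all 8 libraries. A high value in neuron replicate 1 thus helped a locus to enter. The shares over all genes of the top 10% were not counted. Neuron replicate 1 was the highest of 8 libraries at 38 of the 54 and neuron replicate 2 the lowest at 36. Their median was 68.2 and 14.9 CPM per kilobase in neurons, 18.9 and 23.6 in brat numb RNAi, 31.1 and 20.9 in brat RNAi and 27.2 and 20.9 in type I neuroblasts. Only cherub and CR31386 had a log2 fold change of at least 2 in neurons. Neurons against type I neuroblasts gave 28 CR loci higher (10.6%) and 13 lower (4.91%) with edgeR p under 0.05 before adjustment. The shares over all genes were 3.94% and 5.06%, and edgeR called none past the threshold (0% of all genes). The direction depended on the neuron library. Without neuron replicate 1 the median log2 fold change was -0.25 at CR loci and 0.06 over all genes. Without neuron replicate 2 it was 0.09 at CR loci and -0.00 over all genes. DESeq2 called cherub and CR31386 higher and no CR locus lower, where it called 0.289% of all genes higher and 0.0564% lower. Both neuron libraries were above both type I libraries at 58 CR loci (21.9%, against 18.8% of all genes) and below at 71 (26.8%, against 23.9%). The third locus by p value was the pseudogene CR42875, with 11.02 and 12.4 CPM in neurons and 4.24 and 4.28 CPM in type I neuroblasts (log2 fold change 1.46, SE 0.36, edgeR adjusted p = 0.53), which lies 58 bases from CG10068. The joint test of the 4 groups called no gene for this mark (0%), with the smallest p at CR41510 (edgeR adjusted p = 0.22), CR43283 and CR31386 (0.31 each), and 48 CR loci (18.1%) with p under 0.05 before adjustment, beside 12.3% of all genes; DESeq2 called 15 CR loci, where it called 1.95% of all genes.

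Across CR loci, H3K27me3 fold changes were centred above 0 in brat RNAi under TMM scaling. The median log2 fold change over 265 loci was 0.21 in brat RNAi against type I neuroblasts and -0.35 in brat numb RNAi against brat RNAi, and over all genes -0.01 and -0.00. These comparisons share the brat RNAi libraries. Both brat RNAi libraries were above both type I libraries at 84 CR loci (31.7%), against 15.3% of all genes, and below at 20 (7.55%, against 14.5%). Both brat numb RNAi libraries were below both brat RNAi libraries at 130 (49.1%), against 29.7%, and above at 29 (10.9%, against 30.7%). Against type I neuroblasts, brat numb RNAi libraries were above at 34 (12.8%, against 24.2%) and below at 88 (33.2%, against 29.3%). The shift differed between levels: among genes between the 50th and 90th percentile of H3K27me3 the medians were 0.28 and -0.50 at 134 CR loci and 0.14 and -0.39 over all genes, and below the 50th percentile -0.03 and 0.16 at 77 CR loci and -0.18 and 0.45 over all genes. In the top 10% they were 0.14 and -0.41 at 54 CR loci and 0.07 and -0.31 over all genes. With library totals in place of TMM scaling, the medians were 0.07 and -0.00 at CR loci and -0.15 and 0.33 over all genes. In both scalings CR loci lay above all genes in brat RNAi against type I neuroblasts and below them in brat numb RNAi against brat RNAi. The sizes of these shifts depend on the scaling.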

How the data were processed

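The deposited files give, per the file headers, coordinates and a raw read count for each gene, made by the authors and not normalized. H3K4me3 was counted from each gene start to 500 bases downstream and H3K27me3 over the whole model. The submitters' processing notes name bedtools 2.25.0, deepTools 2.5.0.1 and Bowtie2 2.2.4, with build dm3. How reads were counted and duplicates handled is not given in the sources used here, and no input was subtracted here.

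Counts of all 14284 rows were fitted per mark in R 4.3.3 with edgeR 4.0.16 (filterByExpr by group, TMM, robust quasi-likelihood F-test, group means of 8 libraries, 4 residual degrees of freedom), and p values were adjusted by Benjamini-Hochberg over all 14185 or 14182 genes tested, with a threshold of 0.05. DESeq2 1.42.0 (its Wald test, and its likelihood ratio test for the joint test), other scalings, no filter, blocks and left-out libraries were alternatives. The newer edgeR dispersion was chosen after seeing the data. For H3K4me3, edgeR took the spread from all genes at all but 1.18% of genes, so p values there hardly reflect a gene's own replicates. SE was taken as the size of the log2 fold change divided by the root of F. Nothing says that libraries come from separate animals, so p values cover the spread between these samples alone, which may be technical, and the precision of low values is limited by read number. The fit was tested on simulated data.

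Coding genes are rows matched to a RefSeq coding gene by symbol, locus tag or synonym. RefSeq coordinates were not used, and no sequence is shown. Genes named are, per comparison, CR loci past the threshold, or the 3 smallest p where fewer than 3 passed, the 5 highest per mark, and up to 5 near listed regulators. Loci outside this rule are said to be so, or stand as neighbours. Members and lists were chosen with earlier results of these data known. A neighbouring gene of 1 CR locus is not reported here.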

Additional observations from a re-analysis of the deposited data

How the results depend on the processing

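The counts of called CR loci depend on the settings. In neurons, H3K4me3 gave 5 loci against type I neuroblasts in the fit reported, and other settings differed: DESeq2 called 12 (2.49% of all genes), DESeq2 size factors 3 (0.134%), library totals 11 (3.33%), a fit of those groups alone 12 (3.45%), the replicate block 3 (0.233%) and the SBa code block 100 (76 higher, 24 lower; 37.5% of CR loci and 32.5% of all genes), and leaving out 1 library gave 1 to 12 (0.0141% to 2.82%). With the SBa code block, which leaves 1 residual degree of freedom, 7 were called in brat RNAi (4.03% of all genes) and 5 in brat numb RNAi (2.44%), each against type I neuroblasts, with 74 in brat numb RNAi against brat RNAi (27.7% of CR loci and 26.9% of all genes), where the other settings gave 0 except 0 to 1 on leaving out a library in brat numb RNAi against type I neuroblasts. The joint test (7) gave 12 by DESeq2, 13 with library totals (5.17% of all genes), 136 with the SBa code block (50.9% of CR loci and 49.0% of all genes) and 4 to 15 without 1 library (0.705% to 4.34%). For H3K27me3 the fit reported called 0. DESeq2 called 2 in neurons (0.346% of all genes) and 3 in brat RNAi (0.254%), each against type I neuroblasts. It called 3 in brat numb RNAi against brat RNAi (0.515%) and 15 in the joint test (1.95%). The fit of the groups alone called 4 in brat RNAi against type I neuroblasts (0.169% of all genes). Leaving out 1 library gave 0 to 10 in neurons and 0 to 2 in brat RNAi against type I neuroblasts, 0 to 2 in brat numb RNAi against brat RNAi and 0 to 12 in the joint test. Each fit without 1 library leaves 1 library in a group. Its counts describe dependence on single libraries, and not an excess of CR loci over all genes. The SBa code block could not be fitted for H3K27me3, since it leaves no residual degrees of freedom. The median H3K27me3 level was at the 71.3rd percentile for loci without coding overlap. Of the single loci, 359 results kept direction and side of the threshold over the settings run, 27 gained a call, 16 lost one and CR34335 for H3K4me3 in brat numb RNAi against type I neuroblasts changed sign (-0.0164 without brat numb replicate 1, against 2.72 without brat numb replicate 2). CR43650, CR31386 and CR43609 kept their call under the replicate block, and CR43334 and CR32207 lost it (adjusted p = 0.062 and 0.098, edgeR).

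Whether replicate numbers pair the samples is not settled. Deviations of same-numbered libraries from the group means correlated at 0.45 to 0.74 for H3K4me3 and 0.57 to 0.62 for H3K27me3 among neurons, brat RNAi and type I neuroblasts, and at -0.62 to -0.31 wherever brat numb RNAi was one of the groups; each is taken over genes, which do not vary independently. The highest value, 0.74, was that of neurons and type I neuroblasts, whose same-numbered H3K4me3 libraries share an SBa code. With 2 pairs per comparison and no label for the pairing, the fit without the block was kept. The replicate block called 1 CR locus (0.377%) for H3K27me3, CR41510, in brat numb RNAi against brat RNAi and in the joint test. Over all genes it called 0.663% and 0.317%, so these CR calls are near the share of all genes. Depth limits weakly marked loci most, since CPM values near 1 to 3 rest on few reads in the H3K4me3 libraries.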
